A study of Danio rerio with 9 samples.

Results

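Zebrafish eyes at 4 days post fertilization (dpf) were compared with eyes at 3 and 5 dpf combined, to find genes whose signal was higher or lower at 4 dpf than at both neighbouring ages. All 9 arrays of the series entered the comparison, 3 at each age, and the contrast for every probe set was its mean at 4 dpf minus the average of its means at 3 and 5 dpf. A gene has a peak where its 4 dpf mean lay above both other means and a trough where it lay below both. Of 8793 genes with a symbol of their own, each measured by its probe set with the highest mean signal, 1862 had a 4 dpf mean above both others and 1831 had one below both, and in the remaining genes the 4 dpf mean lay between them. Every array was hybridised with RNA of dissected wild type whole eyes, and age is the only difference that the labels state between the groups. The study's paper describes only 3 and 5 dpf eyes for this series, and the 4 dpf samples are numbered in a block apart from all others. Age 4 dpf therefore coincides with a separate part of the deposit, and the effects of age and of that part cannot be told apart. Biological replicates are stated by the study's methods for 3 and 5 dpf, while at 4 dpf nothing beyond a replicate number is given, so p-values measure the spread between these arrays, which may be technical in part.

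At these ages the larval eye becomes a seeing organ. Photoreceptors extend their outer segments and synapses of the plexiform layers mature. Division of retinal cells becomes restricted to the ciliary marginal zone at the rim of the retina. Around the eye, neural crest and mesoderm form the cartilage of the orbit and jaw and the muscles that move the eye, so a dissected eye can carry tissue of both kinds. A whole eye holds many cell types, and in such a bulk sample fewer cells of a type and less RNA per cell cannot be told apart.

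Signals are log2 values on which 1 unit is a 2-fold difference, and array medians ran from 5.70 to 5.79. Of 15 marker genes of the eye, 11 were measured, and crybb1 of the lens, crx of photoreceptors, pax6a of retina and lens and dct of pigment cells had mean signals of 11.6 to 14.9 at every age. The lens crystallin gene cryaa was dimmer and rose with age, with means of 7.21, 8.63 and 9.14 at 3, 4 and 5 dpf. Of 12 measured genes in a list of lens genes, 7 had a mean signal under 3. The lowest signal on the 4 dpf arrays was 0.95 to 1.00, against 1.09 to 1.16 on the other 6 arrays, and the median SD between arrays of one age was 0.09 at 4 dpf, 0.13 at 3 dpf and 0.18 at 5 dpf. The poly-A spike DapX, added RNA that tracks labelling, read 8.58, 8.84 and 9.19 on the arrays numbered 1 at 3, 4 and 5 dpf and 7.07 to 7.53 on the other 6. Whether the 4 dpf arrays were processed apart from the others is not stated, and age and such a difference cannot be told apart.

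Few probe sets passed both limits, an adjusted p under 0.05 (limma, Benjamini-Hochberg over 15502 probe sets) and a contrast of at least 1 on the log2 scale. Of 15502 probe sets 64 passed (0.413%), 11 with a higher (0.0710%) and 53 with a lower (0.342%) 4 dpf mean. Among them 8 were peaks (0.0516%) and 39 were troughs (0.252%), while in the remaining 17 the 4 dpf mean lay between the others. The 4 dpf arrays did not overlap with any array of the other ages in 7 of the 8 peaks and 21 of the 39 troughs, against 9.97% of all probe sets. Without 1 of the 4 dpf arrays, the number passing fell to 39 (replicate 1 left out), 40 (replicate 2) or 36 (replicate 3). With the arrays numbered 2 and 3 alone, a choice made after the spikes had been seen, 18 passed, 1 of them a peak and 10 troughs.

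The troughs were mostly falls from 3 to 4 dpf followed by a small difference to 5 dpf. In all 39 the fall from 3 to 4 dpf passed the adjusted p, with a median of -2.34, and in 8 the 4 dpf mean was also lower than the 5 dpf mean at an adjusted p under 0.05, with a median over all 39 of -0.56. Both differences use the same 4 dpf arrays. In 38 troughs the 3 dpf mean exceeded the 5 dpf mean, and in 10 the 4 and 5 dpf means lay within 0.25 of each other. The difference was at least 2-fold with an adjusted p under 0.05 against each neighbour in 3 troughs and 2 peaks (0.0194% and 0.0129%).

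**Figure D1:**
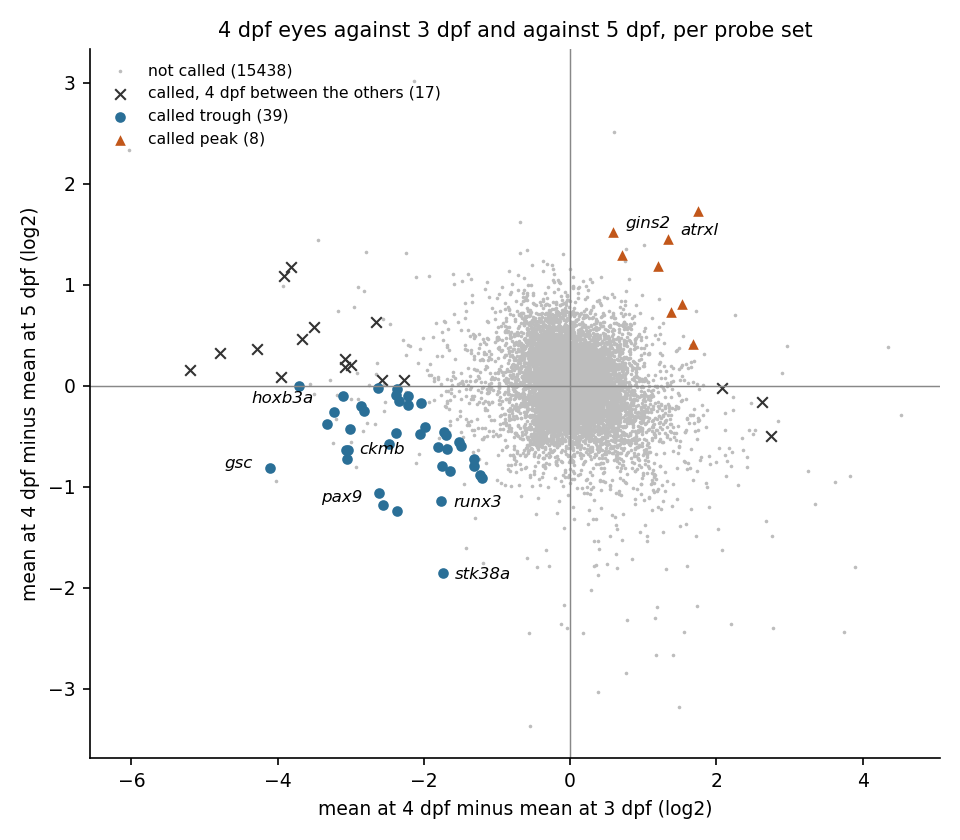
Mean at 4 dpf minus mean at 3 dpf (horizontal axis, log2) and minus mean at 5 dpf (vertical axis, log2) for each of 15502 probe sets, with called peaks as triangles, called troughs as circles and called probe sets with a 4 dpf mean between the others as crosses. The 39 troughs spread along the horizontal axis, and stk38a, at -1.85, lies low on the vertical axis.

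The trough with the smallest p was stk38a, which encodes a serine/threonine kinase of the NDR family. It read 4.58, 4.63 and 4.57 at 3 dpf, 2.89, 2.88 and 2.78 at 4 dpf, and 4.65, 4.78 and 4.69 at 5 dpf. The 3 and 5 dpf arrays gave nearly one level and all 4 dpf arrays lay below it, with no overlap. The contrast was -1.80 (standard error, SE, 0.05, limma adjusted p = 1.55e-05), with differences of -1.74 to 3 dpf and -1.85 to 5 dpf. Setting signals under 4 to 4 reduced the contrast to -0.65 (adjusted p = 0.000691), below the 2-fold limit.

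The other troughs past both limits against each neighbour were the transcription factor genes pax9 and runx3. The paired box gene pax9, needed in mice for organs of the pharyngeal pouches and for parts of the skeleton, read 5.56, 5.47 and 5.08 at 3 dpf, 2.77, 2.77 and 2.74 at 4 dpf, and 3.68, 3.82 and 3.98 at 5 dpf. The ages formed separate ranges, the 5 dpf arrays in the middle, and the contrast was -1.84 (SE 0.11, adjusted p = 0.000531). All 4 and 5 dpf values of pax9 were below 4, so setting signals under 4 to 4 left no difference to 5 dpf. In that setting 0 troughs passed both limits against each neighbour. The Runt domain factor runx3 read 4.99, 4.43 and 4.43, then 3.06, 2.96 and 2.55, then 4.43, 3.84 and 3.71. Here too the 4 dpf arrays lay below all others, while the 3 and 5 dpf arrays touched. Its contrast of -1.45 (SE 0.21, adjusted p = 0.00983) became -1.50 (adjusted p = 0.0524) without 4 dpf replicate 2 and -1.30 (adjusted p = 0.0588) without 4 dpf replicate 3. A further runx3 probe set lay at 2.19, 2.07 and 2.21 on average at 3, 4 and 5 dpf, with a contrast of -0.13 (adjusted p = 0.312).

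A further 5 troughs were lower at 4 than at 5 dpf by an adjusted p alone. The glucose transporter gene slc2a10 read 4.59, 4.44 and 4.75 at 3 dpf, 2.88, 2.95 and 3.03 at 4 dpf, and 3.81, 3.77 and 3.82 at 5 dpf (contrast -1.24, SE 0.07, adjusted p = 0.000497). The calcium-binding parvalbumin gene pvalb7 read 4.12, 4.33 and 4.08, then 2.45, 2.43 and 2.40, then 3.34, 3.06 and 3.25 (contrast -1.27, SE 0.08, adjusted p = 0.000531). In both genes the 3 ages did not overlap and the 5 dpf arrays lay between the other ages. Their 4 and 5 dpf values were all below 4, so setting signals under 4 to 4 left no difference to 5 dpf in either. The intermediate filament gene prph, an axonal gene of peripheral neurons, had means of 5.04 ± 0.28, 3.84 ± 0.14 and 4.75 ± 0.23 (SD, n = 3), and its contrast of -1.06 (adjusted p = 0.00824) shrank to -0.98 without 3 dpf replicate 3 or 4 dpf replicate 1 and to -0.99 without 5 dpf replicate 3. The other prph probe sets had contrasts of -0.25 to 0.07. The remaining members were 1 probe set of the fast troponin I gene tnni2a.4 (difference to 5 dpf -0.62, adjusted p = 0.0103) and 1 of si:ch211-243g18.2 (difference to 5 dpf -0.73, adjusted p = 0.0122). The contrast of the latter, -1.02, went under the limit without 3 dpf replicate 3 (-0.98) or 5 dpf replicate 2, and its brightest probe set fell on to 5 dpf, with means of 7.08, 4.26 and 3.32.

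The largest contrast among called troughs was that of goosecoid, gsc, a homeobox gene of the pharyngeal arches. It read 7.79, 7.15 and 7.26 at 3 dpf, 3.44, 3.23 and 3.24 at 4 dpf, and 4.46, 4.40 and 3.48 at 5 dpf. The 4 dpf arrays lay far below those at 3 dpf, but 5 dpf replicate 3 lay just above the highest 4 dpf array. The contrast was -2.46 (SE 0.25, adjusted p = 0.00279), made up of -4.10 to 3 dpf (adjusted p = 0.000475) and -0.81 to 5 dpf (adjusted p = 0.135). The call held in every fit that left out 1 array, with contrasts between -2.62 and -2.36.

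Among homeobox genes of the arches, dlx5a and dlx4a were called troughs with 4 and 5 dpf means close to each other. The arch gene dlx5a read 4.51, 4.78 and 4.79, then 2.38, 2.33 and 2.32, then 2.61, 2.30 and 2.59, and its relative dlx4a had means of 6.21 ± 0.41, 3.83 ± 0.05 and 3.92 ± 0.02. The contrasts of both passed (-1.25 and -1.23, adjusted p = 0.00105 and 0.0057), while their differences to 5 dpf, -0.15 and -0.09, did not (adjusted p = 0.433 and 0.79). hapln1a, a link protein that ties hyaluronan to cartilage proteoglycan, had a contrast of -1.60 on 1 probe set (means 5.59, 2.49 and 2.59), whereas its brightest probe set fell on to 5 dpf (9.12, 5.20 and 4.11) and is no trough. mmp2, a matrix metalloproteinase, likewise had 1 trough probe set (6.73, 4.51 and 4.70) and 1 brighter one without a trough (7.58, 5.73 and 5.65). The Wnt antagonist gene sost, known as sclerostin of bone cells, had means of 5.47, 3.25 and 3.35 and a contrast of -1.16 (adjusted p = 0.00227).

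Across the cartilage and skeleton list, 3 of 34 measured genes were called troughs (dlx4a, dlx5a and runx3) against 0.318% of all genes, and 7 were troughs at the adjusted p alone (20.6%, against 3.58% of all genes). Troughs at the adjusted p alone were 8.22% of probe sets with a mean signal under 3 and 7.48% of those between 3 and 5. Of the 34 genes, 13 had a mean signal under 3. In 23 of the 34 the 4 dpf mean lay between the others, so most members had no trough. Among these, hand2, a factor of the ventral arches, had means of 8.13, 2.93 and 2.77, dlx2a had 7.24, 4.49 and 4.49, and the cartilage collagen gene col2a1a had 12.69, 10.13 and 9.48. No member was a peak by either rule, against 0.0227% and 1.42% of all genes. The list's median contrast was -0.45, with a median of -0.87 to 3 dpf and -0.03 to 5 dpf, and the median over all genes was 0.01. The collagen XI gene col11a2, named after its values were seen, showed a small return at 5 dpf: it read 3.48, 3.64 and 3.80, then 2.76, 2.75 and 2.71, then 3.43, 3.27 and 3.14. Its 4 dpf arrays lay below all others (contrast -0.72, adjusted p = 0.00446). All of its values were below 4, so no contrast was left with signals under 4 set to 4. The summed linear signal of the 34 genes was 25300 to 34000 at 3 dpf, 4510 to 5370 at 4 dpf and 3220 to 3930 at 5 dpf, so the sum fell on to 5 dpf and had no trough.

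Genes of extracellular matrix outside cartilage were fewer. and1, an actinodin of the fibres of the larval fin fold, read 7.71, 7.07 and 6.73 at 3 dpf, 4.27, 4.25 and 3.82 at 4 dpf, and 5.56, 4.29 and 4.67 at 5 dpf. The 4 dpf arrays lay below all others, narrowly so against 5 dpf replicate 2. The contrast of -1.89 (SE 0.32, adjusted p = 0.0157) lost its call without any one of the 4 dpf arrays (-1.97 to -1.74, adjusted p = 0.0666 to 0.0879). pcolcea, which enhances procollagen processing, and p4ha1b, a prolyl 4-hydroxylase subunit of collagen assembly, had contrasts of -1.05 and -1.04 (adjusted p = 0.0413 and 0.0205), and the calls held in 1 and 3 of 9 fits without 1 array. In the list of collagens and extracellular matrix, 2 of 43 genes were called troughs, against 0.318% of all genes. At the adjusted p alone 3 were troughs (6.98%, against 3.58% of all genes) and 0 were peaks (against 1.42%). The median contrast of the list was -0.37.

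Of all lists, skeletal muscle held the most called troughs. The muscle creatine kinase gene ckmb read 10.32, 9.81 and 10.25 at 3 dpf, 7.07, 7.13 and 6.99 at 4 dpf, and 8.47, 7.91 and 6.73 at 5 dpf. The 4 dpf arrays were close together, while those at 5 dpf spread on both sides of them. The contrast was -1.85 (SE 0.35, adjusted p = 0.0236), of which -3.06 was the difference to 3 dpf (adjusted p = 0.00484) and -0.64 that to 5 dpf (adjusted p = 0.39). The call was lost without 3 dpf replicate 3, 5 dpf replicate 2 or any 4 dpf array (adjusted p = 0.0523 to 0.111).

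Some myosin and troponin genes were called troughs as well, and others fell on to 5 dpf. The brighter probe set of the regulatory light chain gene mylpfa read 9.63, 9.71 and 10.06, then 6.96, 6.95 and 6.91, then 7.59, 7.23 and 6.61. Again the 5 dpf arrays surrounded the 4 dpf level, with replicate 3 below it. Its contrast was -1.53 (SE 0.20, adjusted p = 0.00706), and that of the other mylpfa probe set was also -1.53 (adjusted p = 0.00678). The light chain genes mylz3 (-1.72, adjusted p = 0.0126) and myl13 (-1.54, adjusted p = 0.0164), each of which lost its call without any one of the 4 dpf arrays (adjusted p = 0.0569 to 0.0847), also passed, as did mybphb, a myosin binding protein (-1.42, adjusted p = 0.0219), whose call was lost without 3 dpf replicate 3 or any 4 dpf array (adjusted p = 0.0507 to 0.109). The light chain gene myl1, in contrast, had means of 9.18, 4.39 and 4.07 and the fast troponin T gene tnnt3a had 7.03, 3.54 and 2.95, so that neither has a trough. Both probe sets of tnni2a.4 passed, with contrasts of -1.27 and -1.15, and so did 2 probe sets of the titin gene ttn.2, with -1.10 and -1.32, of which the second held in 1 of 9 fits without 1 array. Dimmer probe sets of ttn.2 had contrasts of -0.06 and -0.09 and did not pass. The calcium pump gene atp2a2a (-1.09, adjusted p = 0.00688) and chrna1, the alpha subunit of the muscle acetylcholine receptor (-1.06, adjusted p = 0.0449), lost their calls without 3 dpf replicate 1 and in 8 of the 9 fits without 1 array, respectively. With signals under 4 set to 4 the contrast of atp2a2a was -0.11, and its other probe set had -0.07 (adjusted p = 0.324).

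Of 69 measured muscle genes, 8 were called troughs, against 0.318% of all genes. At the adjusted p alone 16 were troughs (23.2%, against 3.58% of all genes). Of the 69 genes, 15 had a mean signal under 3, where 8.22% of all probe sets were such troughs. Called peaks numbered 0, against 0.0227% of all genes, and 1 gene was a peak at the adjusted p alone (1.45%, against 1.42%). That peak was mef2ca, a transcription factor of muscle and of jaw cartilage, which read 3.48, 3.53 and 3.54, then 4.22, 3.94 and 3.93, then 3.59, 3.49 and 3.58 (contrast 0.50, adjusted p = 0.00924, named after its values were seen). With signals under 4 set to 4 the mef2ca contrast was 0.07 and did not pass. The median contrast of the list was -0.66, with medians of -1.14 to 3 dpf and -0.15 to 5 dpf. The 5 dpf mean was above the 4 dpf mean in 47 of the 69 genes, yet 5 dpf replicate 3 lay below every 4 dpf array in 31. The array's own control probe set for the 3′ end of muscle actin, acta1, read 12.05, 11.29 and 11.51, then 9.41, 8.67 and 8.46, then 9.89, 9.10 and 7.71. The control for the middle of acta1 read 10.35, 9.26 and 9.51, then 7.49, 6.39 and 6.49, then 7.86, 6.54 and 4.59. In both controls 5 dpf replicate 3 lay below every 4 dpf array. The list member acta1a fell on to 5 dpf, with means of 9.54, 5.87 and 5.41, and had no trough. The summed linear signal of the 69 genes was 30600 to 35300 at 3 dpf, 19600 to 20800 at 4 dpf and 15100 to 18000 at 5 dpf. The brightest member at 4 dpf, mb, weighs heavily in these sums, with means of 13.23, 13.26 and 12.55. The fall of the sum from 4 to 5 dpf is therefore not that of most members. With the arrays numbered 2 and 3 alone, 0 muscle genes were called troughs, and with signals under 4 set to 4, 3 were.

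The troughs outside these groups had varied roles. meltf, an iron-binding melanotransferrin, read 5.75, 6.92 and 5.90, then 2.39, 2.63 and 2.44, then 2.47, 2.54 and 2.46, so that its 4 and 5 dpf arrays shared one level (contrast -1.85, SE 0.24, adjusted p = 0.00658). It was the trough nearest to the edge of the definition, 0.01 below its 5 dpf mean, and dlx6a, with a contrast of -1.26 and a 4 dpf mean 0.05 above its 5 dpf mean, lay just outside. The Wnt receptor gene fzd9b had means of 5.47, 3.76 and 4.25, and its second probe set, at 6.85, 5.89 and 6.20, had a smaller contrast in the same direction (-0.63, adjusted p = 0.00379). pdlim7, a PDZ and LIM domain protein of the actin cytoskeleton, had means of 6.77, 3.74 and 4.37 (contrast -1.84, adjusted p = 0.0219), a call lost without any one of the 4 dpf arrays (adjusted p = 0.0843 to 0.105). st14a, the membrane protease matriptase of epithelia, had a contrast of -1.05 (adjusted p = 0.0139), a call lost without 4 dpf replicate 2 or 3 or 5 dpf replicate 1 (-0.99 to -0.92, adjusted p up to 0.0813). The glycosyltransferase gene b3gnt3.1 had a contrast of -1.20 (adjusted p = 0.00227). The uncharacterised wu:fj05g07 had means of 5.11, 2.74 and 3.97 (contrast -1.81, adjusted p = 0.0147), and its call was also lost without any one of the 4 dpf arrays (adjusted p = 0.0732 to 0.0773). The bone morphogenetic protein gene bmp4 fell just short of 2-fold, at 3.81, 3.90 and 3.92, then 2.72, 2.97 and 2.95, then 3.83, 3.77 and 3.85 (contrast -0.97, SE 0.06, adjusted p = 0.000714). Every bmp4 value was below 4, so no contrast was left with signals under 4 set to 4.

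Hox genes, which pattern hindbrain and trunk and are not known as genes of the eye, were represented by hoxb3a. It read 6.56, 4.96 and 6.62 at 3 dpf, 2.74, 2.97 and 2.76 at 4 dpf, and 3.38, 2.71 and 3.16 at 5 dpf. The 3 dpf arrays were high but replicate 2 lay well below the others, and the ranges at 4 and 5 dpf overlapped. The contrast of -1.74 (SE 0.37, adjusted p = 0.0393) kept its call in 1 of 9 fits without 1 array, with adjusted p values up to 0.161. It was the only called trough among 42 measured Hox genes (against 0.318% of all genes), of which 35 had a mean signal under 3. At the adjusted p alone 5 were troughs (11.9%, against 3.58% of all genes and 8.22% of probe sets with a mean under 3). Of these, hoxd4a (means 3.89, 2.65 and 3.38) and hoxa2b (3.36, 2.16 and 2.68) had contrasts of -0.98 and -0.87, both named after their values were seen and both not past the adjusted p without any one of the 4 dpf arrays (0.0806 to 0.104). The median contrast over the 42 genes was -0.02.

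**Figure D2:**
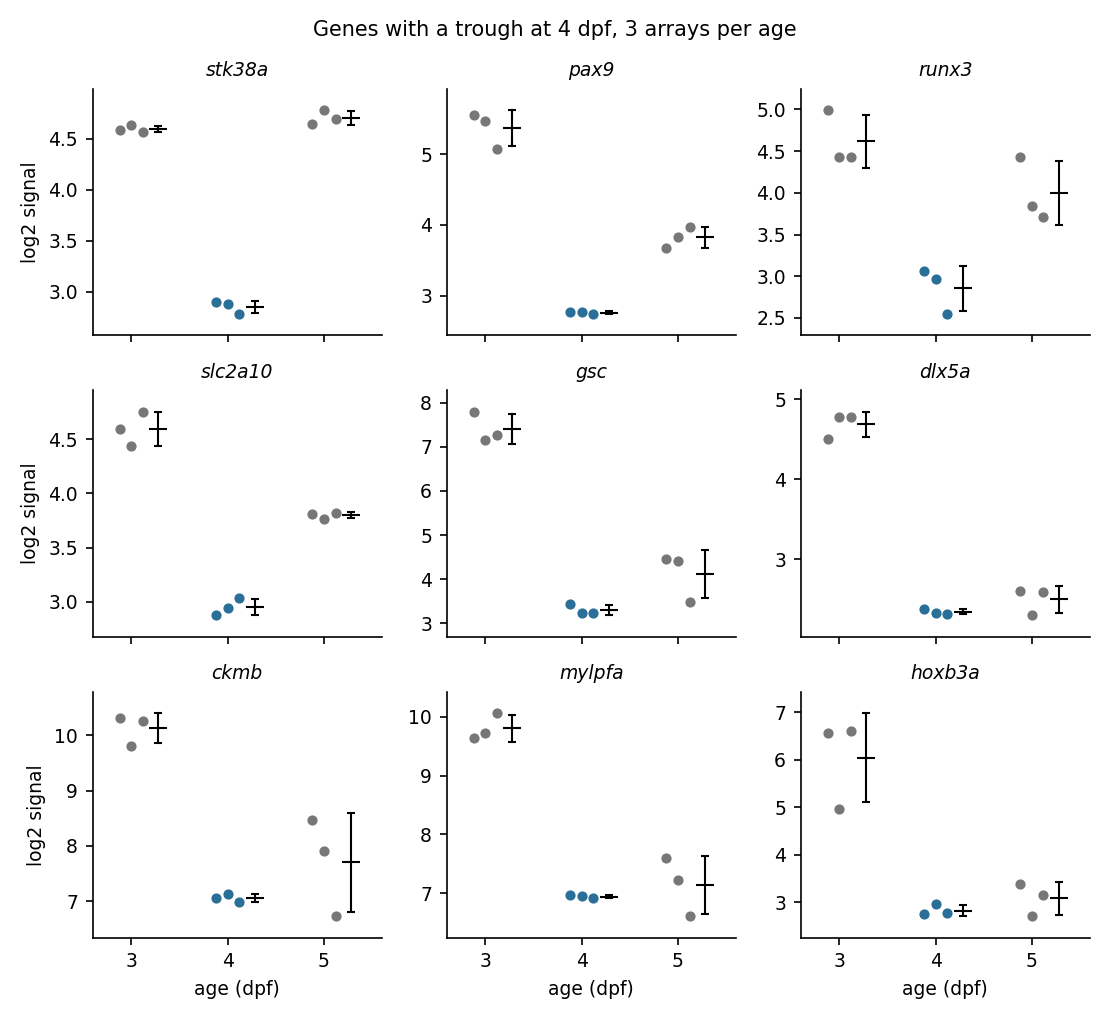
Log2 signals of 9 genes with a called trough at 3, 4 and 5 dpf, 1 point per array (blue at 4 dpf) and a bar for the mean ± SD of 3 arrays, each panel on its own vertical scale. In stk38a, pax9, runx3 and slc2a10 the 5 dpf arrays lie above the 4 dpf arrays, whereas in dlx5a, ckmb, mylpfa and hoxb3a they overlap with them.

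Called peaks at 4 dpf were rarer than called troughs. The 8 called peaks held 4 probe sets with 1 symbol, 2 with several and 2 with none, and the latter 4 had contrasts of 1.00 to 1.74. All 8 passed the adjusted p against 3 dpf and 4 of them against 5 dpf. The named gene with the largest was atrxl, whose called probe set read 3.26, 3.39 and 3.20 at 3 dpf, 4.44, 4.41 and 5.02 at 4 dpf, and 2.99, 3.29 and 3.26 at 5 dpf. All 4 dpf arrays lay more than 1 above every other array. The contrast was 1.39 (SE 0.15, adjusted p = 0.00336), with 1.34 to 3 dpf and 1.45 to 5 dpf, both past the limits. With signals under 4 set to 4, which raises its 3 and 5 dpf values, the contrast was 0.63 (adjusted p = 0.161) and the call was lost. The other atrxl probe set was brighter and had no such peak, with means of 8.68, 8.59 and 8.61 and a contrast of -0.06 (adjusted p = 0.874).

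In ppp3r1b and ppp1r3ca the difference to 5 dpf did not pass. The calcineurin regulatory subunit gene ppp3r1b read 2.99, 3.11 and 3.08, then 4.38, 4.40 and 4.54, then 3.16, 3.85 and 4.12 (contrast 1.06, SE 0.19, adjusted p = 0.0212). The 4 dpf arrays lay above all others, but the 5 dpf arrays spread over nearly 1 unit, and the call was lost without 3 dpf replicate 3, 5 dpf replicate 1 or any 4 dpf array (contrasts of 0.92 to 1.09, adjusted p up to 0.108). A second ppp3r1b probe set had means of 10.51, 10.47 and 10.51 and a contrast of -0.05. ppp1r3ca, a subunit that directs protein phosphatase 1 to glycogen, read 7.59, 7.05 and 7.14, then 9.24, 8.55 and 9.02, then 8.93, 8.45 and 8.19. It rose from 3 to 4 dpf by 1.68 (adjusted p = 0.00801), whereas its 4 and 5 dpf arrays overlapped and the difference of 0.42 did not pass (adjusted p = 0.381). It was the peak nearest to its neighbour, its contrast was 1.05 (adjusted p = 0.0373), and the call held in 2 of 9 fits without 1 array. The second ppp1r3ca probe set was dim and lay the other way, with means of 2.68, 2.55 and 2.84 (contrast -0.21, adjusted p = 0.0384). Just outside the definition, the calmodulin-dependent kinase gene camk1ga had a contrast of 1.02 with a 4 dpf mean 0.03 below its 5 dpf mean, a call that also held in 2 of 9 fits (adjusted p up to 0.175).

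The remaining named peak, gins2, belongs to DNA replication. It encodes a subunit of the GINS complex, part of the helicase that opens DNA at replication forks, and read 5.17, 5.30 and 5.27 at 3 dpf, 5.58, 5.95 and 5.97 at 4 dpf, and 4.44, 4.32 and 4.18 at 5 dpf. The ages did not overlap, with 4 dpf highest and 5 dpf lowest. The contrast was 1.05 (SE 0.10, adjusted p = 0.00256), with 0.59 to 3 dpf (adjusted p = 0.0206) and 1.52 to 5 dpf (adjusted p = 0.002). Without 4 dpf replicate 2 or 3 the contrast was 0.99 or 0.98, under the 2-fold limit, at adjusted p values of 0.0218 and 0.0202.

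GINS partners had smaller peaks, named here after their values were seen. gins1 read 2.78, 3.11 and 2.98, then 3.61, 3.58 and 3.95, then 2.85, 2.92 and 2.96 (contrast 0.78, adjusted p = 0.00736), all values that lie below 4, so that no contrast was left with signals under 4 set to 4. gins4 read 6.96, 7.12 and 6.99, then 7.33, 7.31 and 7.45, then 6.94, 6.84 and 6.92 (contrast 0.40, adjusted p = 0.00828, and 0.36, adjusted p = 0.0514, without 4 dpf replicate 3). In both, every 4 dpf array exceeded all arrays of the other ages, while the means of gins3 were 6.03, 5.82 and 5.76 (contrast -0.08, adjusted p = 0.73). The helicase subunit gene mcm3 had means of 7.92 ± 0.09, 8.16 ± 0.05 and 7.21 ± 0.16 (contrast 0.59, adjusted p = 0.00617), and its 4 dpf mean passed against 5 dpf but not against 3 dpf (adjusted p = 0.119). dtl, a substrate receptor of the ubiquitin ligase that degrades replication licensing factors in S phase, had means of 3.85, 4.54 and 3.71 (contrast 0.77, adjusted p = 0.00526). The dtl contrast was 0.54 and did not pass (adjusted p = 0.0663) with signals under 4 set to 4.

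In the list of DNA replication and S phase, 1 of 55 measured genes was a called peak, against 0.0227% of all genes. At the adjusted p alone 4 were peaks (7.27%, against 1.42% of all genes) and 0 were troughs (against 3.58%). The list's median mean signal was 7.59, and of probe sets with a mean of 7 or more 0.593% were such peaks and 0.254% such troughs. A contrast above 0 was found in 52 of the 55, against 52.8% of all genes, and the median was 0.19. The median difference to 3 dpf was -0.06 and that to 5 dpf was 0.47, so most members lay near their 3 dpf level at 4 dpf and lower at 5 dpf, and 32 of the 55 had a 4 dpf mean between the others. For example, the polymerase clamp gene pcna had means of 12.52, 12.40 and 11.93 and the helicase subunit gene mcm2 had 9.23, 9.20 and 8.36, and neither contrast passed (adjusted p = 0.67 and 0.439). Of 62 genes of mitosis, 0 were peaks (against 1.42% of all genes) and 4 were troughs at the adjusted p alone (6.45%, against 3.58%). Each of the 4 had a mean signal under 4 at every age, and the median contrast of the mitosis genes was 0.03.

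**Figure D3:**
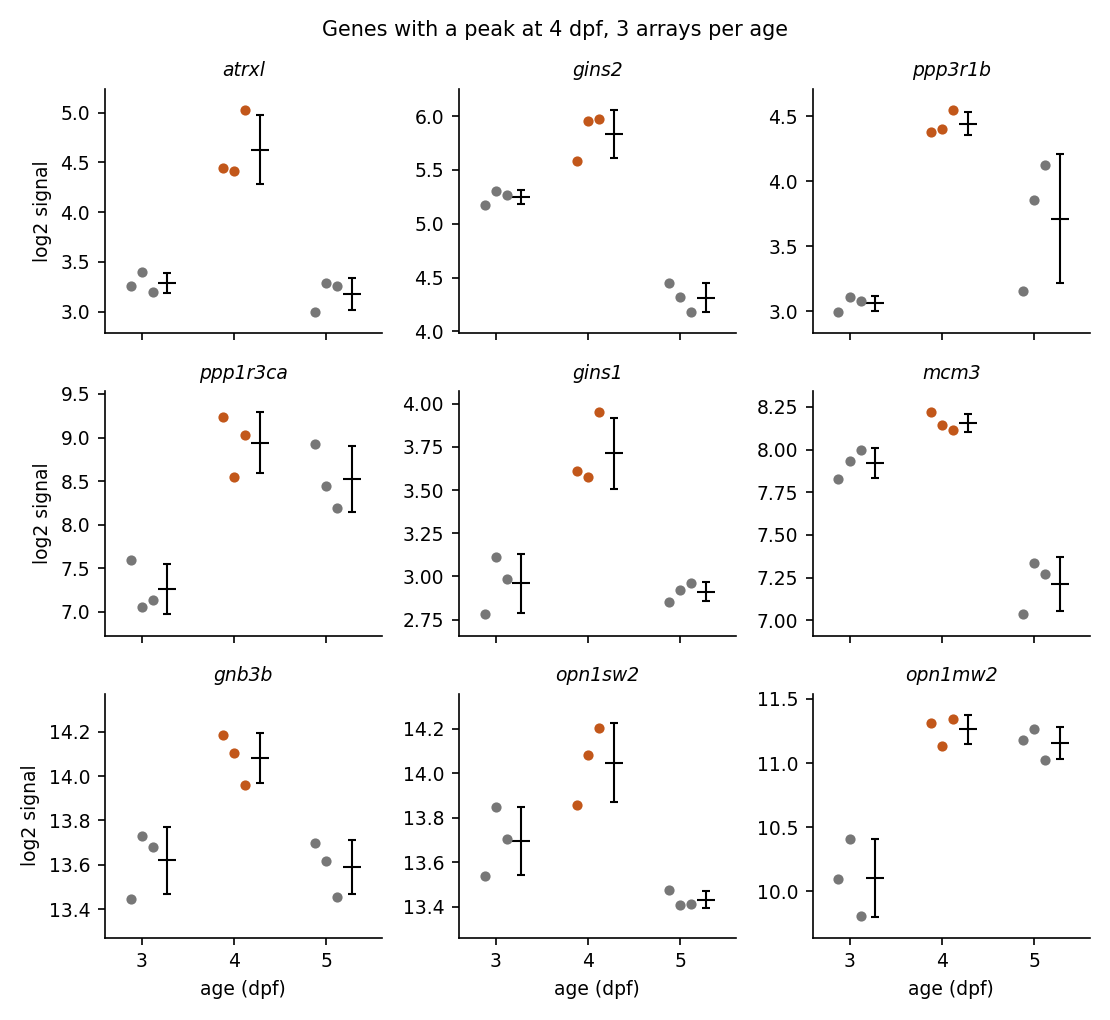
Log2 signals of 9 genes with a 4 dpf mean above both others at 3, 4 and 5 dpf, 1 point per array (orange at 4 dpf) and a bar for the mean ± SD of 3 arrays, each panel on its own vertical scale. The first 4 panels, atrxl, gins2, ppp3r1b and ppp1r3ca, are called peaks, and the others passed the adjusted p with a contrast below 1.

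Genes of phototransduction, the cascade from opsin to channel closure, mostly had a 4 dpf mean above both neighbours, but few of their contrasts passed the test. Of 32 measured genes 20 had a 4 dpf mean above both others, against 21.2% of all genes. A contrast above 0 was found in 28, against 52.8% of all genes, and the median was 0.48. At the adjusted p alone 3 were peaks (9.38%, against 1.42% of all genes) and 0 were troughs (against 3.58%), and 0 were called in either direction at 2-fold. The median difference to 3 dpf was 0.65 and that to 5 dpf was 0.08, so the median member lay higher at 4 than at 3 dpf and close to its 5 dpf level. The highest contrast of the list was that of the red cone opsin gene opn1lw1, which read 6.85, 9.30 and 7.14, then 9.63, 7.37 and 9.33, then 8.09, 6.31 and 7.75. Its arrays spread widely at every age and overlapped, and the contrast of 1.20 did not pass (SE 0.76, adjusted p = 0.509).

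The 3 genes past the adjusted p were all expressed in cones, and are named after their values were seen. gnb3b, the beta subunit of cone transducin, read 13.45, 13.73 and 13.68, then 14.18, 14.10 and 13.96, then 13.70, 13.62 and 13.46 (contrast 0.48, SE 0.09, adjusted p = 0.0229). The blue cone opsin gene opn1sw2 read 13.54, 13.85 and 13.70, then 13.86, 14.08 and 14.21, then 13.47, 13.41 and 13.41 (contrast 0.48, SE 0.09, adjusted p = 0.026). In both the 4 dpf arrays lay above all others, though only just above 3 dpf replicate 2 in opn1sw2. The green cone opsin gene opn1mw2 read 10.10, 10.41 and 9.81, then 11.31, 11.13 and 11.34, then 11.18, 11.26 and 11.02, a rise from 3 to 4 dpf by 1.16 (adjusted p = 0.00483) with overlapping arrays at 4 and 5 dpf (contrast 0.63, adjusted p = 0.0348). Each of the 3 missed the adjusted p without 4 dpf replicate 2 or 3 (0.0628 to 0.16), and gnb3b and opn1mw2 also without 4 dpf replicate 1. opn1sw2 further missed it without 3 dpf replicate 3 or 5 dpf replicate 2 or 3, and opn1mw2 without 3 dpf replicate 1 or any 5 dpf array (0.0507 to 0.0662).

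Other cone genes did not pass, and their contrasts lay on both sides of 0. The ultraviolet cone opsin gene opn1sw1 had means of 14.87, 15.09 and 14.80, and its 4 dpf arrays did not overlap with the others (contrast 0.26, adjusted p = 0.0759). The green opsin gene opn1mw1 had means of 13.93, 14.10 and 13.06 (contrast 0.60, adjusted p = 0.0641), with only the difference to 5 dpf past the adjusted p (1.03, adjusted p = 0.0158). Without 5 dpf replicate 1 its contrast of 0.70 passed (adjusted p = 0.00888). The cone transducin alpha subunit gene gnat2 read 13.13, 13.22 and 13.17, then 13.76, 13.66 and 13.41, then 13.55, 13.30 and 13.13 (contrast 0.36, adjusted p = 0.115), with an overlap of the 4 and 5 dpf arrays. The cone transducin gamma subunit gene gngt2a had means of 11.07, 10.63 and 10.31 (contrast -0.06, adjusted p = 0.961), and the dim probe set of the green opsin gene opn1mw4 had 3.71, 3.62 and 3.84 (contrast -0.16, adjusted p = 0.0811). The cone phosphodiesterase gene pde6ha had its highest mean at 5 dpf (12.50, 14.85 and 15.37, contrast 0.92, adjusted p = 0.105). Positive contrasts were not confined to cone genes. The rod transducin gene gnat1 had means of 11.47, 12.49 and 12.11 (contrast 0.69, adjusted p = 0.0738). Those of gngt1, also of rods, were 12.74, 13.55 and 13.33 (contrast 0.52, adjusted p = 0.101). The rod gene pde6a had its highest mean at 5 dpf (8.24, 9.67 and 9.90, contrast 0.60, adjusted p = 0.263).

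Genes of the synapse list held 0 called peaks, against 0.0227% of all genes, and those past the adjusted p alone had contrasts below 1. In the synapse list 16 of 22 measured genes had a 4 dpf mean above both others, against 21.2% of all genes, with a median contrast of 0.23. At the adjusted p alone 3 were peaks (13.6%, against 1.42% of all genes). The glycine receptor subunit gene glra3 read 4.13, 4.03 and 3.76, then 5.02, 5.04 and 5.20, then 4.88, 4.88 and 4.28 (contrast 0.76, SE 0.15, adjusted p = 0.0321). The glra3 contrast was 0.72 and did not pass (adjusted p = 0.126) with signals under 4 set to 4. snap25b, a SNARE protein of synaptic vesicle fusion, read 13.08, 13.11 and 13.03, then 13.34, 13.39 and 13.36, then 13.10, 13.24 and 13.22 (contrast 0.23, SE 0.05, adjusted p = 0.0276). In both the 4 dpf arrays lay above all others, and both missed the adjusted p without 3 dpf replicate 2 or 3 or any 4 dpf array (0.0525 to 0.153). The remaining peak of the list, glra1, was dim at every age, with means of 2.29, 2.55 and 2.34 (contrast 0.23, adjusted p = 0.0101). Outside this list, the neuronal intermediate filament gene inaa rose from 3 to 4 dpf by 1.65 (adjusted p = 0.000835). It had 5 dpf values overlapping those at 4 dpf, with means of 9.86, 11.51 and 11.33 (contrast 0.92, adjusted p = 0.00533). snap25b, glra1 and inaa are named after their values were seen.

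**Figure D4:**
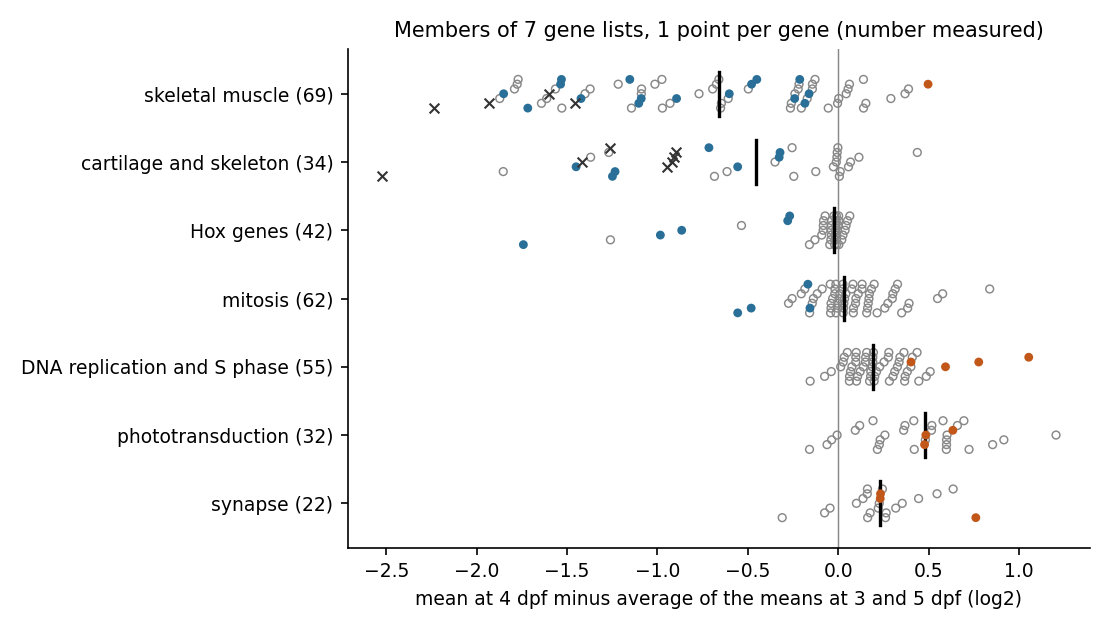
Contrast of each measured member of 7 gene lists (horizontal axis, mean at 4 dpf minus the average of the means at 3 and 5 dpf, log2), with black bars at the list medians. Filled points passed the adjusted p as peaks (orange) or troughs (blue), crosses passed it with a 4 dpf mean between the others, and open points did not pass. Muscle and cartilage genes extend to the left, while genes of replication, phototransduction and synapse lie mostly right of 0.

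Of 37 lists in all, 1 held a called peak, 7 held a called trough and 29 held neither, and 23 had a median contrast within 0.1 of 0. Of 72 cytosolic ribosomal protein genes, 75 of oxidative phosphorylation and 92 of RNA splicing, 0 were peaks or troughs at the adjusted p alone, with medians of 0.03, 0.17 and -0.02. Over all genes 1.42% were such peaks and 3.58% such troughs. These lists are bright, with median mean signals of 13.62, 11.09 and 9.39. Among probe sets with a mean of 7 or more, 0.593% were such peaks and 0.254% such troughs, so a count of 0 is close to that share. Without passing singly, 45 of the 75 oxidative phosphorylation genes had a 4 dpf mean above both others, against 21.2% of all genes. Below both lay 0, against 20.8%, and 70 had a contrast above 0, against 52.8%. Of probe sets with a mean of 7 or more, 22.4% lay above both and 12.4% below both. Pancreatic digestive enzyme genes had a median of -0.44 that lay in the difference to 5 dpf (-1.54) rather than to 3 dpf (0.03), with 1 of 29 a trough at the adjusted p alone. Of 14 genes of pigment epithelium and melanin, 2 were peaks and 1 (bmp4) a trough at the adjusted p alone. One of the peaks, the tyrosinase gene tyr, read 2.79, 2.95 and 2.90, then 3.60, 3.65 and 3.60, then 2.98, 3.57 and 3.04 (contrast 0.58, adjusted p = 0.0437), and passed in 1 of 9 fits without 1 array, that without 5 dpf replicate 2. Every tyr value was below 4, so no contrast was left with signals under 4 set to 4.

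The adjusted p alone, without a fold limit, took in 930 probe sets, of which 263 were peaks (1.70%) and 609 were troughs (3.93%). Among these, 103 peaks and 332 troughs also passed the adjusted p against each neighbour. Their share depended on the mean signal over the 9 arrays. Troughs were 8.22% of 3528 probe sets with a mean under 3, 7.48% of 3289 between 3 and 5, 2.08% of 2784 between 5 and 7, and 0.254% of 5901 at 7 or more. Peaks were 1.79%, 3.34%, 1.98% and 0.593% of the same groups, so troughs outnumbered peaks in the 3 dimmer groups and peaks outnumbered troughs in the brightest. Of the 39 troughs at 2-fold, 26 had a 4 dpf mean under 4, and with signals under 4 set to 4, 6 of the 39 remained, namely gsc, mmp2, both probe sets of mylpfa, and 1 each of tnni2a.4 and ttn.2. The minimum, a single value per array, was lower on the 4 dpf arrays than on all others. The 1st percentile of the signals on the 4 dpf arrays, in contrast, overlapped with that at 3 dpf and lay below that at 5 dpf. Probe sets with a mean under 3 had a median contrast of -0.0111. Whether the low end of the signals had a part in the excess of dim troughs was not tested.

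**Figure D5:**
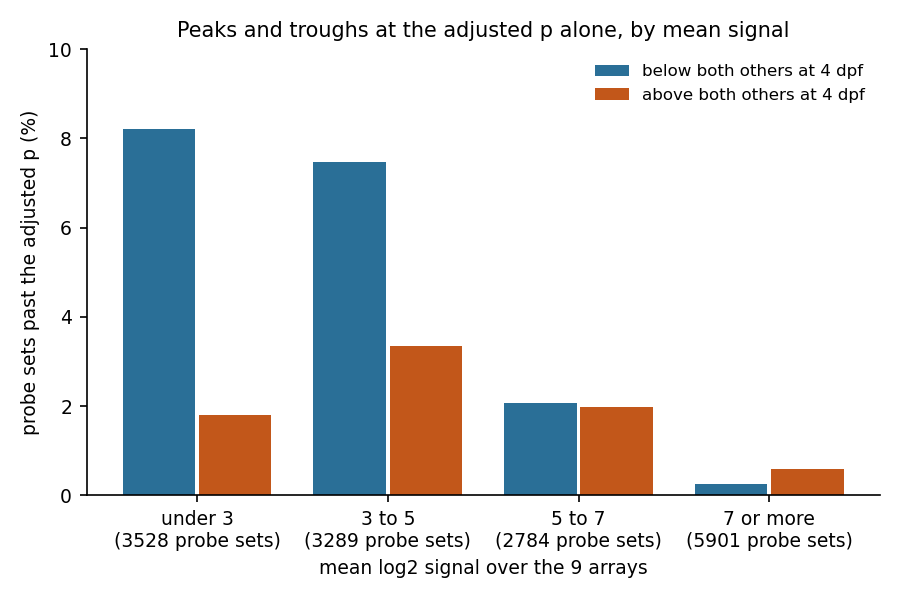
Share of probe sets past the adjusted p (vertical axis, %) that were troughs (blue) or peaks (orange) at 4 dpf, by mean log2 signal over the 9 arrays (horizontal axis, with the number of probe sets). Troughs run from 8.22% of the dimmest to 0.254% of the brightest group, and peaks from 3.34% at their highest to 0.593%.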

How the data were processed

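The values were log2 signals, 1 per original Affymetrix probe set, which the authors deposited for 9 Zebrafish Genome Arrays of dissected eyes. The submitters' processing notes name GCRMA (background correction, normalization and summary of probes), with no version given in the sources used here. Whether the 9 arrays were normalized together is unknown. No further normalization was applied, and 115 control probe sets were left out. Tests used limma 3.58.1 (lmFit and eBayes) in R 4.3.3, 1 fit to all 9 arrays without covariates, with Benjamini-Hochberg adjustment over 15502 probe sets. The number of arrays limits the precision.

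A call needed an adjusted p under 0.05 and a 2-fold contrast, the limits of the study's methods. Symbols came from the platform annotation, with 10711 of 10795 probe sets that have 1 symbol updated through the Entrez identifier in RefSeq, and 135 with several symbols and 4572 without one were tested but not named. Named were the largest contrasts among called peaks and troughs, those past both neighbours, up to 4 members of each list, and the genes nearest to the definition's edge. The comparison, its members and the gene lists were chosen with earlier results of these data known. Data were simulated over 15502 probe sets, with 100 changed by 1.5 and 100 by 3 in this contrast. Of these, 85 and 98 were recovered, and 0 unchanged probe sets were called. These counts hold for the simulated noise only. On the real arrays the spread differed between ages, and some arrays of the same number stayed correlated after group means were removed. How often unchanged probe sets are called under those conditions was not tested. The 9 arrays correlated at 0.964 to 0.995, and no array repeats another.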

Additional observations from a re-analysis of the deposited data

How the results depend on the processing

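The counts of probe sets called, peaks, troughs, peaks past both neighbours and troughs past both neighbours were 64, 8, 39, 2 and 3. With signals under 4 set to 4 they were 18, 2, 7, 0 and 0, and when tested only where the mean signal reached 5 they were 12, 1, 7, 0 and 0. Without a fold limit they were 930, 263, 609, 103 and 332. Array weights gave 101 called, 59 troughs and 1 peak past both neighbours, quantile normalization gave 1 peak and 1 trough past both, and 1 probe set per gene gave 2 peaks, 0 of them past both. The arrays numbered 2 and 3 alone, an alternative chosen after seeing the data, gave 18, 1, 10, 0 and 0. Leaving out each array in turn gave 36 to 78 called, 3 to 8 peaks, 24 to 58 troughs, 1 to 3 peaks past both and 2 to 6 troughs past both. In these fits 18 of 35 trough and 1 of 4 peak probe sets with 1 symbol kept their call throughout. No contrast of a named gene past its limit changed sign. Why the counts changed was not tested, and some settings also leave fewer arrays or probe sets.

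With the replicate number as a block, 70 probe sets were called, with 7 peaks, 41 troughs and 2 and 3 past both neighbours. Of the genes named, opn1mw2 (adjusted p = 0.052), pcolcea (0.0672), camk1ga (0.0616) and 1 probe set of ttn.2 (0.0846) did not pass with the block, while opn1sw1 did (0.0427). The number marks no shared animals or batch in the labels. After group means were removed, arrays of the same number at 3 and 4 dpf correlated at 0.599, 0.497 and 0.439, but those at 4 and 5 dpf at 0.725, -0.0718 and -0.0308. The numbers were therefore not taken to pair the arrays. Across numbers, 4 dpf replicate 2 correlated best with 5 dpf replicate 3 (0.529) and 4 dpf replicate 3 with 5 dpf replicate 2 (0.5). For 3 dpf replicate 2 the best partner at 5 dpf was replicate 3 (0.463). The main fit took no account of such correlation, and the block followed the numbers as given. Median centring, trend and robust settings and the control probe sets kept the counts of calls, peaks and troughs within 1.5 times. In 26 of the 39 troughs the 4 dpf mean was under 4, which limits how well their depth can be measured.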
